A study of Vaccinium corymbosum with 9 samples.

Results

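Dihydroflavonol 4-reductase (DFR) and anthocyanidin synthase (ANS) are the enzymes of the late steps of anthocyanin synthesis, the pathway that gives blueberry skin its blue pigment. Their genes were taken as every gene model that the authors' annotation assigns to KEGG ortholog K13082 (DFR) or K05277 (ANS). This rule uses annotation alone and finds 10 of the 93716 gene models, 5 for each enzyme. The RNA was measured by sequencing in 9 libraries of fruit of the highbush blueberry cultivar 'Bluecrop', with 3 libraries for each of the stages early green, color break and mature. All 3 stages carry the same genotype, no treatment is given in the labels, and green fruit is the baseline. Per the labels the 3 libraries of a stage are independent biological replicates. The labels name the tissue as fruit without separating skin, pulp and seed, so pigmented skin was measured together with the rest.

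In plants generally, DFR reduces dihydroflavonols to colourless leucoanthocyanidins, and ANS, a 2-oxoglutarate-dependent dioxygenase also called leucoanthocyanidin dioxygenase, oxidises these to coloured anthocyanidins. A glucosyltransferase then attaches a sugar and makes the stable pigment. Chalcone synthase (CHS), chalcone isomerase (CHI) and flavanone 3-hydroxylase (F3H) act upstream of DFR. The side branches draw on the same intermediates: flavonol synthase (FLS) competes with DFR for dihydroflavonols, leucoanthocyanidin reductase (LAR) removes the product of DFR, and anthocyanidin reductase (ANR) removes the product of ANS, the last pair towards condensed tannins.

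The libraries held 52919289 to 67604266 estimated counts. Levels are given as FPKM, fragments per unit of transcript length and sequencing depth, and stage means carry the SD of 3 libraries. Log2 changes are from edgeR's quasi-likelihood test with TMM scaling, are given ± SE, and carry Benjamini-Hochberg adjusted p-values over the 48073 genes that reached 1 FPKM in at least 3 libraries. To be called, a gene needed an adjusted p below 0.05 together with a log2 change of 1 or more in size. Of the 10 gene models 8 passed the filter, 4 of each enzyme. Color break replicate 3 stood apart from its group, with a correlation of log2(CPM + 1) of 0.971 to 0.972 with the others of its stage, and leaving it out changed none of the calls of DFR and ANS rows.

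Both enzymes were far higher at color break than in green fruit and stayed high in mature fruit. At color break 7 of the 8 tested rows rose against green fruit and 0 fell, at a background of 8.89% of all tested genes called higher and 13.9% called lower. The 4 DFR rows rose by 3.57 to 4.10 on the log2 scale, and 3 of the 4 ANS rows rose by 8.01 to 8.91. The median log2 change was 3.74 for DFR and 8.06 for ANS, where that of all tested genes was -0.01. Against green fruit, mature fruit had the same number of rows called, 7 higher and 0 lower, at a background of 9.49% higher and 15.1% lower. Both comparisons use the same green libraries.

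The 7 rows that rose are 4 DFR copies on scaffolds 13, 30, 32 and 42 and 3 ANS copies on scaffolds 22, 43 and 46. Cultivated highbush blueberry is tetraploid, so several near-identical copies of a gene are usual, and how the authors' counting divided reads between such copies is not given. The level of any single copy is therefore less certain than the sum over the copies of an enzyme.

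**Figure D1:**
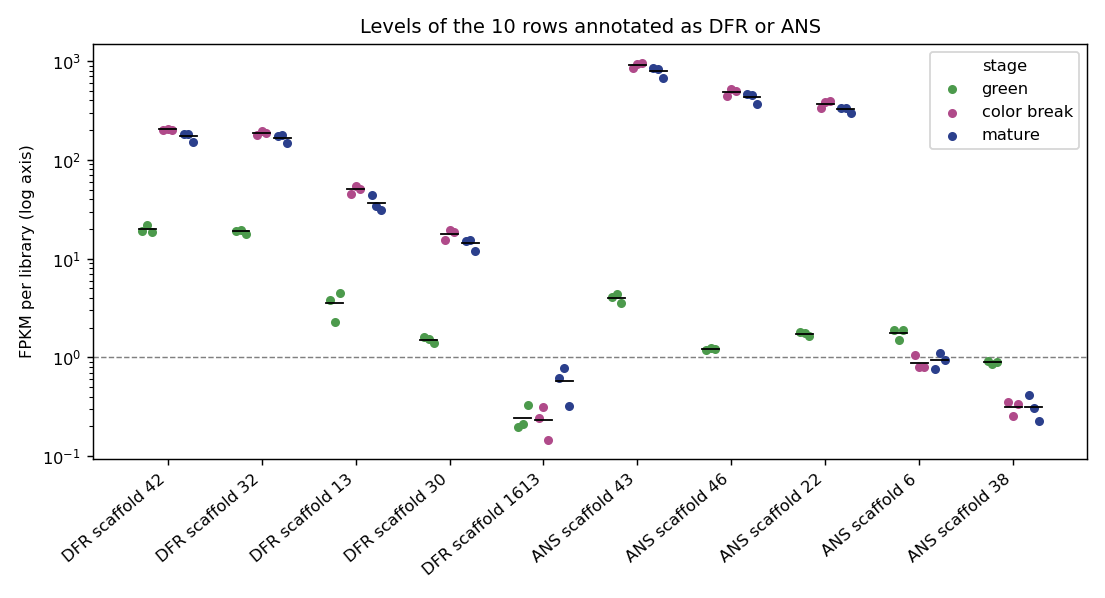
FPKM (log axis) of each DFR and ANS gene model in each of the 9 libraries, with 1 point per library and a bar for the stage mean. The 7 copies on scaffolds 13, 22, 30, 32, 42, 43 and 46 sit higher in all 6 color break and mature libraries than in any green library, and the other 3 models lie at or below 1.90 FPKM throughout.

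The leading gene of each enzyme is the row with the highest mean FPKM over the 9 libraries. Most of these are color break or mature libraries, so the choice favours genes high there. The leading DFR gene was VaccDscaff42-processed-gene-96.9, on the minus strand of scaffold 42 from 9604507 to 9608970, with 7 exons. Its FPKM was 19.2, 21.7 and 18.6 in green replicates 1 to 3, 203, 207 and 201 at color break, and 185, 184 and 153 in mature fruit. No green library came within reach of the others, and all 3 mature libraries lay below all 3 color break libraries. The means were 19.8 ± 1.68, 203 ± 3.03 and 174 ± 18.1 FPKM (SD, n = 3 each). The rise at color break was 3.63 ± 0.09 on the log2 scale (edgeR adjusted p = 2.0e-09), and mature fruit kept a log2 change of 3.39 ± 0.09 against green. In whole fruit, more cells that express a gene and more RNA in each such cell cannot be told apart.

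VaccDscaff32-processed-gene-199.0, on the plus strand of scaffold 32 from 19905343 to 19910703 with 8 exons, matched the leading copy closely in level. Its FPKM was 19.3, 19.6 and 18.0 in green fruit, 178, 195 and 187 at color break and 174, 178 and 147 in mature fruit. The green libraries were again far below the rest, while the color break and mature libraries overlapped at 178. It rose by 3.57 ± 0.08 on the log2 scale at color break (edgeR adjusted p = 1.5e-09).

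The copy on scaffold 13, VaccDscaff13-processed-gene-166.8 (minus strand, 16670615 to 16674560, 6 exons), is described in the annotation as the dihydroflavonol reductase of Vaccinium corymbosum itself. It was a minor copy, at 3.82, 2.30 and 4.49 FPKM in green libraries, 45.4, 54.2 and 51.0 at color break and 44.4, 33.9 and 31.3 in mature fruit. Every mature library lay below every color break library. Its log2 change at color break was 4.10 ± 0.26 (edgeR adjusted p = 3.9e-06).

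The copy on scaffold 30, VaccDscaff30-augustus-gene-208.37 (minus strand, 20847324 to 20852515, 5 exons), was the lowest of the 4. Its FPKM was 1.62, 1.52 and 1.39 in green fruit, 15.6, 19.4 and 18.7 at color break and 15.2, 15.6 and 12.1 in mature fruit. All mature libraries lay below all color break libraries, the nearest pair being only 15.598 and 15.621 FPKM. It rose by 3.84 ± 0.13 on the log2 scale at color break (edgeR adjusted p = 1.3e-08).

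A neighbouring model without a KEGG ortholog, VaccDscaff30-augustus-gene-208.35, is described as a dihydroflavonol reductase too and lies 14488 bases from this copy, at 20830439 to 20832835 on the same strand. In green fruit it measured 2.65 ± 0.101 FPKM, with 21.8 ± 1.59 at color break and 17.0 ± 1.49 in mature fruit. Its rise at color break was 3.31 ± 0.10 on the log2 scale, so scaffold 30 held a pair of models with like levels and like rises. In mature fruit it was 0.37 lower on the log2 scale than at color break with an edgeR adjusted p of 0.035, short of the fold that a call needed.

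The fifth DFR model, VaccDscaff1613-processed-gene-0.0, sits on a short scaffold from 4549 to 6321 on the plus strand, and its end overlaps a gene model on the opposite strand by 126 bases. It did not pass the filter. Its FPKM was 0.195, 0.212 and 0.327 in green fruit, 0.241, 0.311 and 0.146 at color break and 0.616, 0.773 and 0.324 in mature fruit, from 14 to 60 estimated counts per library. In a fit without the filter its log2 change between mature and green fruit was 1.56 ± 0.47 (edgeR adjusted p = 0.023), and mature replicate 3, at 0.324, lay below green replicate 3, at 0.327. Whether counting used strand is not stated, so reads from the overlap cannot be assigned. A second model on this scaffold with a dihydroflavonol reductase description, VaccDscaff1613-snap-gene-0.7, held 0 to 19 estimated counts per library and was not tested.

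The leading ANS gene was VaccDscaff43-augustus-gene-236.29, on the minus strand of scaffold 43 from 23629220 to 23633350, with 3 exons. Its FPKM was 4.11, 4.35 and 3.55 in green fruit, 843, 933 and 961 at color break and 852, 833 and 682 in mature fruit. Every color break and mature library was above every green one by a wide margin, and the later stages overlapped. The means were 4.01 ± 0.410, 912 ± 61.7 and 789 ± 93.3 FPKM (SD, n = 3 each). It rose by 8.10 ± 0.13 on the log2 scale at color break (edgeR adjusted p = 3.1e-10) and was 7.88 ± 0.13 above green in mature fruit. Ranked by mean FPKM among all 93716 gene models it stood at position 23791 in green fruit, 34 at color break and 38 in mature fruit.

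VaccDscaff46-augustus-gene-11.23 on the plus strand of scaffold 46 (1160275 to 1164053, 3 exons) had the largest log2 rise of the 8 tested rows. Its FPKM was 1.19, 1.24 and 1.21 in green fruit, 441, 519 and 500 at color break and 468, 455 and 367 in mature fruit. Green libraries held 116 to 120 estimated counts for it, so the low side of this ratio rests on few reads but on close replicates. The rise was 8.91 ± 0.13 on the log2 scale (edgeR adjusted p = 1.9e-10).

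VaccDscaff22-augustus-gene-131.24 on the plus strand of scaffold 22 (13184070 to 13187952, 3 exons) completed the set of ANS copies. Its FPKM was 1.79, 1.76 and 1.65 in green fruit, 335, 385 and 395 at color break and 337, 338 and 301 in mature fruit. The green libraries lay far below, and the color break and mature libraries overlapped. It rose by 8.01 ± 0.10 on the log2 scale at color break (edgeR adjusted p = 1.1e-10).

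The remaining ANS rows did not follow these copies. VaccDscaff6-snap-gene-380.44, a model of 10 exons on scaffold 6 (37992904 to 38010148, minus strand), had FPKM of 1.90, 1.51 and 1.90 in green fruit, 1.06, 0.802 and 0.802 at color break and 0.758, 1.11 and 0.942 in mature fruit. All green libraries were the higher ones here, as in 47.1% of all tested genes against color break and 46.9% against mature fruit, and the later stages overlapped. The log2 change at color break was -0.72 ± 0.19 with an edgeR adjusted p of 0.010, which is short of the fold that a call needed. Of its later libraries only those at 1.06 and 1.11 FPKM reached 1 FPKM, so the row passed the filter only through its green libraries. The filter thus favoured a fall from green fruit in this row. Its GO terms include codeine O-demethylase activity and none for leucocyanidin oxygenase, the activity of ANS that the other 3 tested rows carry.

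VaccDscaff38-snap-gene-37.48, with 19 exons on scaffold 38 (3710462 to 3748173, plus strand), carries a GO term for strigolactone biosynthesis and none for anthocyanin biosynthesis. It did not pass the filter, at 0.855 to 0.924 FPKM in green fruit, 0.257 to 0.355 at color break and 0.229 to 0.418 in mature fruit. Its green libraries were all above the later ones. In a fit without the filter its log2 change at color break was -1.11 ± 0.23 (edgeR adjusted p = 0.0031), and a gene model on the opposite strand lies within its span. Of the 10 rows 8 carry the GO term for anthocyanin biosynthesis, and these last ANS rows are the 2 that do not.

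**Figure D2:**
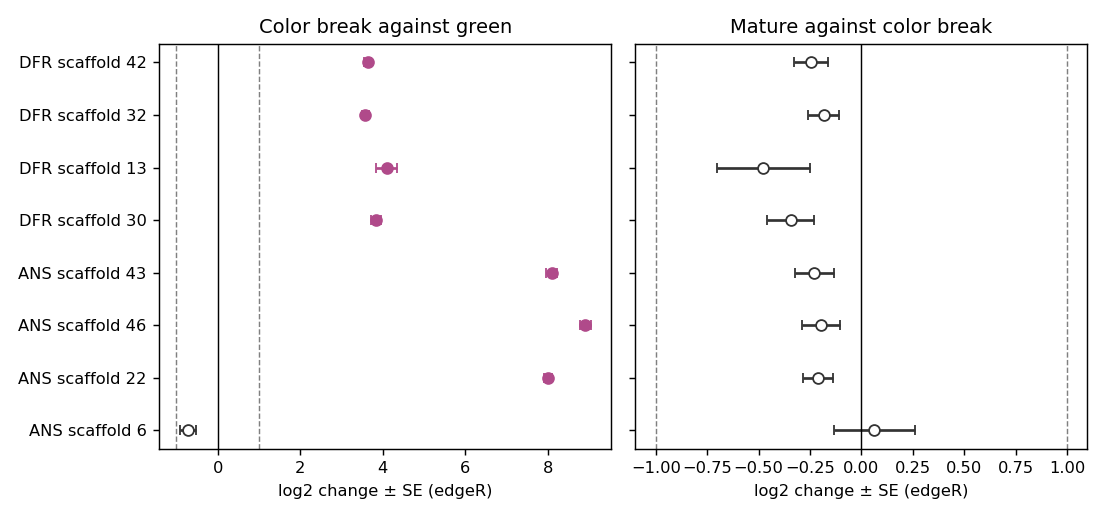
Log2 change (± SE, edgeR) of the 8 tested DFR and ANS rows for color break against green and for mature against color break, with filled points for called rows and dashed lines at a log2 change of 1 either way. At color break the DFR copies lie between 3.57 and 4.10 and the ANS copies between 8.01 and 8.91, while every value for mature against color break lies between -0.48 and 0.06.

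Of all 10 rows, 7 had every color break library above every green library, 2 had every one below and 1 overlapped. Over all tested genes 18.9% had the first order and 47.1% the second. These shares cover tested genes only, and 8 of the 10 rows were tested. Against green fruit the mature libraries gave the same counts, 7, 2 and 1, where 21.9% of all tested genes had every mature library higher. The share with every mature library lower was 46.9%. The 7 are the copies that were called, so their order was largely set by that choice. An F test over the 3 stages in edgeR passed at an adjusted p under 0.05 for all 8 tested rows, at a background of 59.0% of tested genes.

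From color break to mature fruit 0 of the 8 tested rows were called higher and 0 lower, at a background of 0.763% higher and 0.612% lower. The log2 changes were small and mostly downward, below 0 in 7 of the 8 rows, from -0.48 ± 0.23 for the DFR copy on scaffold 13 to 0.06 ± 0.20 for the ANS row on scaffold 6. The leading DFR gene changed by -0.24 ± 0.08 (edgeR adjusted p = 0.11) and the leading ANS gene by -0.23 ± 0.10 (edgeR adjusted p = 0.21). With edgeR, 5 rows had an unadjusted p under 0.05, all lower. DESeq2 called 0 with 6 such rows, and limma called 0 with 4. The smallest adjusted p was 0.113 with edgeR and 0.0493 with DESeq2, and neither came with a log2 change of 1.

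In 3 of the 7 copies, the DFR copies on scaffolds 13, 30 and 42, every mature library was below every color break library, at a background of 12.0% of tested genes, and in the other 4 copies the libraries overlapped. The lowest mature library was replicate 3 in 7 of 7 copies, and the lowest color break library was replicate 1 in 6 of 7. Without mature replicate 3 the log2 change between the stages was -0.15 for the leading DFR gene and -0.13 for the leading ANS gene.

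Summed over its 5 rows, DFR measured 44.1, 45.3 and 42.7 FPKM in the green libraries, 442, 475.4 and 458 at color break and 419, 412 and 344 in mature fruit. The means were 44.0 ± 1.30, 458 ± 16.9 and 392 ± 41.3 FPKM, a 10.4-fold difference between color break and green. Summed ANS measured 9.92, 9.71 and 9.21 FPKM in the green libraries, 1620, 1838 and 1858 at color break and 1659, 1627 and 1352 in mature fruit. Its means were 9.61 ± 0.362, 1772 ± 132 and 1546 ± 169 FPKM, a 184-fold difference between color break and green. For both enzymes the green libraries were apart from all others, and the mature mean was 85.5% of the color break mean for DFR and 87.2% for ANS. These sums are FPKM without the TMM scaling of the log2 changes.

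An exact permutation test over all 1680 assignments of the 9 libraries to stages gave p = 0.0036 for summed DFR, the smallest p it can give, and p = 0.0107 for summed ANS. Between color break and mature fruit the exact permutation p was 0.1 for DFR, the smallest that 3 against 3 libraries allow, and 0.3 for ANS.

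The order of the enzymes turned over between the stages. In green fruit the RNA of DFR exceeded that of ANS, and the FPKM ratio of ANS to DFR was 0.225, 0.214 and 0.216 in the 3 libraries. At color break the ratio was 3.67, 3.87 and 4.06, and in mature fruit 3.96, 3.94 and 3.93. The stage means were 0.218 ± 0.00588, 3.87 ± 0.195 and 3.95 ± 0.0176, so the ratio in ripe fruit lay inside the color break range with a far smaller spread. The exact permutation test across the 3 stages gave p = 0.025 for the ratio. Between mature and color break fruit the exact permutation p was 0.7.

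**Figure D3:**
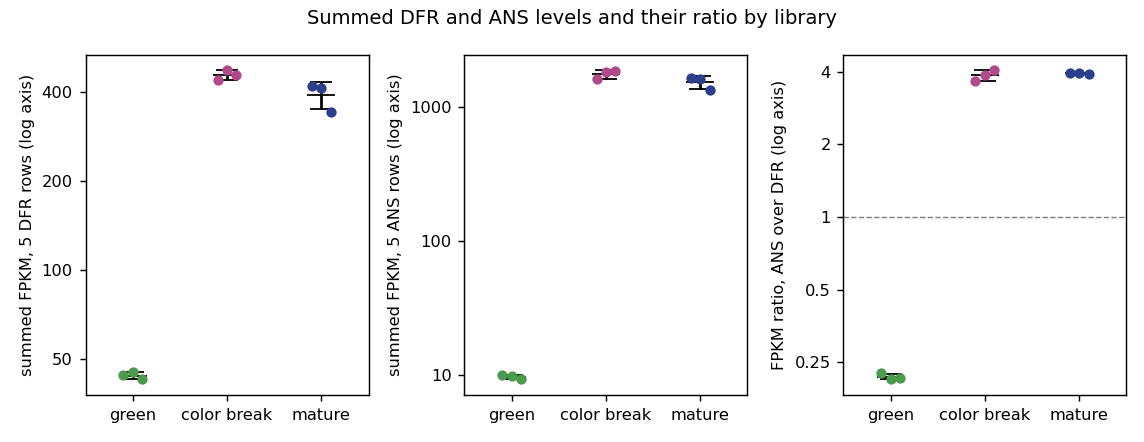
Summed FPKM of the 5 DFR rows, summed FPKM of the 5 ANS rows and the ratio of ANS to DFR in each library, on log axes, with stage means and SD as bars. The ratio lies between 0.214 and 0.225 in green fruit and between 3.67 and 4.06 in the 6 later libraries, on the other side of the dashed line at 1.

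The low green level of ANS depends in part on which rows are summed. The 2 rows without the leucocyanidin oxygenase term made up 27.7% ± 3.10 of summed ANS in green fruit, 0.0687% at color break and 0.0815% in mature fruit. With the other 3 rows alone, summed ANS came to 6.95 FPKM in the green stage and 1771 at color break, a 255-fold difference.

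The share of each copy within its enzyme was compared over the copies that rose. Among the 4 DFR copies the one on scaffold 42 held 45.2% of the sum in green fruit, 44.5% at color break and 44.5% in mature fruit. The copy on scaffold 32 held 43.2%, 40.7% and 42.5%, so this pair carried most of the DFR RNA at every stage. The copy on scaffold 13 held 8.13%, 10.9% and 9.33%, and that on scaffold 30 held 3.45%, 3.90% and 3.64%.

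Among the ANS copies the leading one on scaffold 43 held 57.5% ± 1.94 of the sum in green fruit, 51.6% ± 0.663 at color break and 51.0% in mature fruit. The copy on scaffold 46 held 17.5% ± 1.16, 27.5% ± 0.682 and 27.8% ± 0.542, and that on scaffold 22 held 25.0%, 21.0% and 21.1%. In the means, scaffold 46 went from the smallest share in green fruit to the second in the later stages. The log2 ratio of the copy on scaffold 46 to that on scaffold 43 was -1.72 in green fruit, -0.91 at color break and -0.88 in mature fruit. The exact permutation test of this ratio over stages gave p = 0.0143, and 0.0643 after adjustment over the 9 copy pairs compared. The same values came out for the DFR pair on scaffolds 30 and 32, and none of the 9 pairs had an adjusted p under 0.05. Without color break replicate 2 the adjusted p of the ANS pair was 0.0321, and in 8 of the 9 leave-outs it was not under 0.05. The copy ratios were not among the tests planned beforehand.

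**Figure D4:**
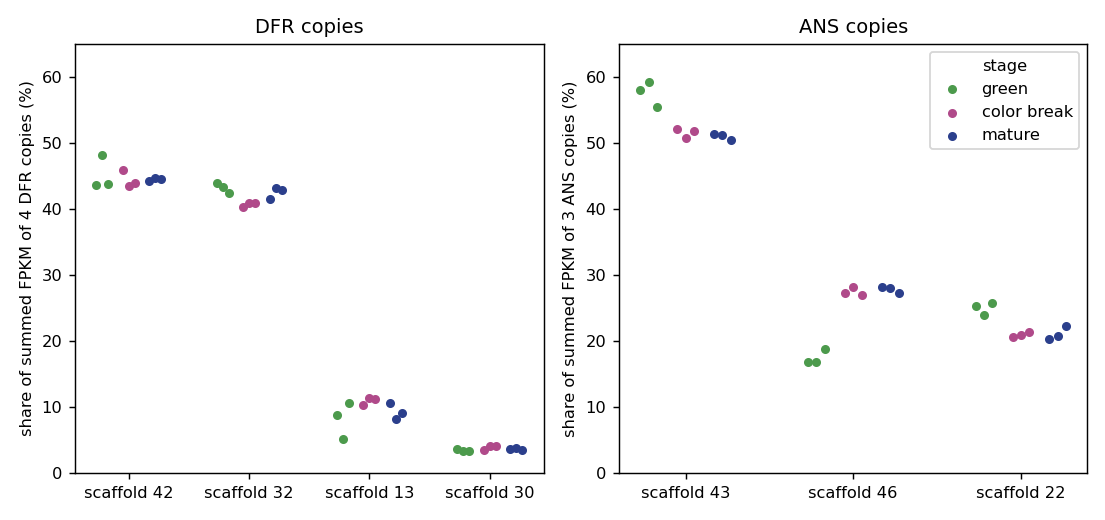
Share of each copy (percent) in the summed FPKM of the 4 DFR copies and of the 3 ANS copies, in each library. The shares of DFR change little between the stages, and the ANS copy on scaffold 46 goes from 17.5% in green fruit to 27.5% at color break in the stage means.

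The copies also sat in like surroundings. Among the 5 gene models on each side, the DFR copies on scaffolds 13, 32 and 42 shared 7 protein descriptions with each other, and the copy on scaffold 30 shared 4 with each of these. Each pair of the 3 ANS copies shared 5, though not the same 5 in every pair, and the ANS row on scaffold 6 shared 0 with any of them. VaccDscaff30-augustus-gene-208.35, the neighbour described as a dihydroflavonol reductase, was left out of the counts that follow. It was tested and called higher at color break (log2 change 3.31). Of the 69 other neighbouring models 32 were tested, and at color break 1 was called higher, 6 lower and 25 were not called. Their median log2 change was -0.10. Over all tested genes 8.89% were called higher and 13.9% lower in that comparison.

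The genes whose profile over the 9 libraries was most like that of the leading genes were other flavonoid genes with 1 exception. Likeness was measured as Pearson's r of log2(FPKM + 1) among 12618 candidate genes with a stage mean of at least 10 FPKM. All 9 libraries share the step between green fruit and the rest, so high values are common, and 517 candidates exceeded 0.99 with DFR and 564 with ANS. For DFR the 5 nearest were the F3H genes VaccDscaff42-processed-gene-20.3 (r = 0.9996) and VaccDscaff30-augustus-gene-297.38, the CHS gene VaccDscaff25-augustus-gene-174.22, the CHI gene VaccDscaff33-augustus-gene-231.26 and VaccDscaff2-snap-gene-403.50. The last carries GO terms for defense response and signal transduction and went from 87.7 ± 3.78 FPKM in green fruit to 243 ± 5.32 at color break and 226 ± 12.7 in mature fruit.

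For ANS, 4 of the 5 nearest were genes of KEGG ortholog K13269, which carry the GO term for anthocyanidin 3-O-glucosyltransferase activity, the enzyme that acts on the product of ANS. The nearest, VaccDscaff39-processed-gene-2.0 (r = 0.9999), measured 0.838 ± 0.0782 FPKM in the green stage, 416 ± 30.6 at color break and 368 ± 49.3 in mature fruit. The others, VaccDscaff6-augustus-gene-420.36, VaccDscaff37-augustus-gene-300.34 and VaccDscaff38-augustus-gene-9.29, rose from under 1 FPKM in green fruit to 207, 342 and 460 FPKM at color break. The fifth was the CHS gene VaccDscaff25-augustus-gene-173.26.

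Beside the late genes, 12 families of the pathway had 155 rows, of which 100 were tested. At color break 74 rose, 8 fell and 18 were not called against green fruit, with a median log2 change of 4.80, where 8.89% of all tested genes were called higher and 13.9% lower. In mature fruit against color break 0 rose and 1 fell, and 99 were not called, at a background of 0.763% higher and 0.612% lower.

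Of the steps upstream of DFR, all 12 tested of 14 CHS genes, all 8 CHI genes and all 8 F3H genes were called higher at color break, and so were all 4 genes of flavonoid 3'-hydroxylase (F3'H), which adds a hydroxyl group to the B ring. Over all tested genes 8.89% were called higher and 13.9% lower in that comparison. The highest CHS gene, VaccDscaff4-processed-gene-104.3, went from 1.59 ± 0.264 to 796 ± 93.2 FPKM, a log2 change of 9.23 ± 0.19. The highest F3H gene, VaccDscaff18-processed-gene-15.24, rose from 18.4 ± 0.532 to 476 ± 50.4 FPKM, and the highest CHI gene, VaccDscaff26-augustus-gene-107.28, from 10.3 ± 0.662 to 243 ± 24.6 FPKM. The median log2 change was 8.29 for CHS, 5.63 for F3H and 3.05 for CHI. Of these 3 families CHI had a median under that of DFR, and CHS and F3H had one above it. No test was made between families.

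Flavonoid 3',5'-hydroxylase (F3'5'H), which sets the B-ring pattern of delphinidin-type blue pigments, had the highest summed level of the pathway families. In green fruit its sum was 441 ± 31.2 FPKM, against 3528 ± 58.6 at color break and 3585 ± 117 in mature fruit. At color break 8 of its 11 tested genes rose and 1 fell, at a background of 8.89% higher and 13.9% lower. Its highest gene, VaccDscaff8-augustus-gene-360.23, was already at 348 ± 22.3 FPKM in green fruit and rose by 2.86 ± 0.05 on the log2 scale.

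The side branches differed in direction. In green fruit summed FLS was 4.03 ± 0.559 FPKM, against 45.3 ± 14.4 at color break and 62.4 ± 8.66 in mature fruit, and all 4 tested genes rose at color break. Summed LAR was 8.86 ± 0.700, 12.3 ± 3.80 and 7.26 ± 0.586 FPKM, with 2 of 4 tested genes rising and 2 falling at color break. Summed ANR was 32.9 ± 1.81, 35.4 ± 6.78 and 26.0 ± 3.49 FPKM, with 2 of 4 rising and 1 falling. For these counts at color break the background was 8.89% of all tested genes called higher and 13.9% called lower. The highest ANR gene, VaccDscaff22-snap-gene-38.62, fell by 1.01 on the log2 scale, and without 1 of 4 libraries in turn (green replicates 1 and 3, color break replicates 1 and 3) it missed the fold that a call needed, as it did in the fit without the filter (-0.90). In green fruit summed ANR was 3.42 times summed ANS, and at color break summed ANS was 50.0 times summed ANR. Both sums depend on the ortholog labels. The highest ANR gene, at 22.2 FPKM in green fruit, carries no GO term for anthocyanidin reductase activity. The ANS sum includes the 2 rows without the leucocyanidin oxygenase term.

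**Figure D5:**
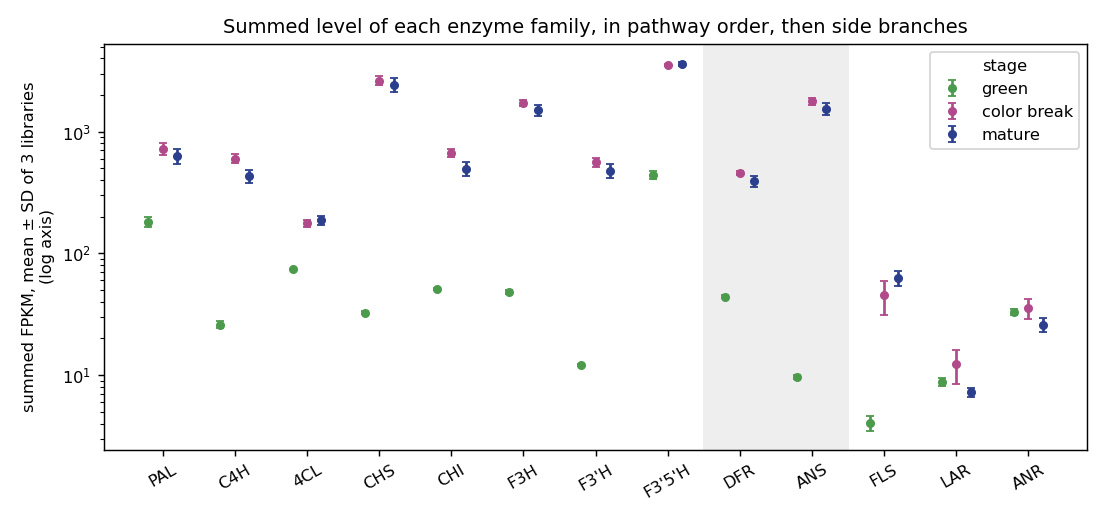
Summed FPKM (log axis) of the pathway families by stage, as means with SD bars over 3 libraries, with DFR and ANS on the shaded ground. C4H, CHS, CHI, F3H, F3'H, DFR and ANS are low in green fruit and high in the later stages, and LAR and ANR lie between 7.26 and 35.4 FPKM at all 3 stages.

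At the entry to the pathway, phenylalanine ammonia-lyase (PAL) had 14 of 15 tested genes rising at color break and 0 falling, cinnamate 4-hydroxylase (C4H) 6 of 9 rising and 1 falling, and 4-coumarate-CoA ligase (4CL) 6 of 20 rising and 3 falling, at the same background of 8.89% higher and 13.9% lower. The highest C4H gene, VaccDscaff21-augustus-gene-13.24, rose by 5.93 ± 0.12 on the log2 scale, and the highest 4CL gene, VaccDscaff50-processed-gene-21.6, by 5.25 ± 0.18. The highest PAL gene, VaccDscaff19-augustus-gene-331.32, rose by 1.19 ± 0.13 at color break. It missed the fold that a call needed with scaling by library size alone (0.89), with limma on log2(FPKM + 1) and log2(FPKM + 0.1) (0.91 each) and with a filter at a mean of 5 FPKM (0.94), and it was not called in mature against green fruit (0.98). For anthocyanidin 3-O-glucosyltransferase of ortholog K12930, 1 of 5 rows was tested, VaccDscaff20-processed-gene-68.12, at a log2 change of -0.92 ± 0.27 that was not called at color break. It was called there with scaling by library size alone (-1.22), with limma on log2(FPKM + 0.1) (-1.09) and without green replicate 1 (-1.03). In mature against green fruit it was called lower (-1.43 ± 0.27, edgeR adjusted p = 0.0014). This row passed the filter only through its green libraries, at 1.49 to 2.11 FPKM against 0.356 to 0.763 in the later ones. The filter thus favoured a fall from green fruit in this row. The ortholog numbers K12938, K12338 and K17193 had 0 rows. They were taken for the 5,3-O- and 5-O-glucosyltransferases and for cyanidin 3-O-galactosyltransferase. Rows under other ortholog numbers were not searched for these activities.

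Markers of other tissue moved between the same stages. The summed level of 104 seed storage genes (GO nutrient reservoir activity), 82 of which passed the filter, was 24835 to 30154 FPKM in green libraries, 1530 to 2304 at color break and 1522 to 1740 in mature fruit, and 2, 16 and 18 of these genes were at 0 in all libraries of the stage. The sum of 58 light-harvesting genes, 33 of which passed the filter, was 427 to 459, 238 to 270 and 145 to 165 FPKM, with 0, 1 and 4 at 0. As reference genes, 19 actin rows summed to 486 to 509, 779 to 836 and 819 to 863 FPKM, and 19 elongation factor 1-alpha rows to 1532 to 1579, 1280 to 1370 and 1360 to 1421 FPKM. The part of these shifts in the levels of DFR and ANS was not tested.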

How the data were processed

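RNA of 9 fruit libraries was sequenced by the submitters. The deposited table gives FPKM and estimated counts made by the authors for each library and gene. Per the submitters' processing notes fastp, HISAT2, StringTie and DESeq2 were used, and no version, setting or genome build is stated in these notes or the labels. The protocol text of the labels names a poplar hybrid under stress, while the organism field and gene names are blueberry. The deposited estimated counts are whole numbers and went into edgeR 4.0.16 (R 4.3.3), with limma 3.58.1 as an alternative. Genes with at least 1 FPKM in at least 3 libraries were tested in a fit with TMM scaling, robust quasi-likelihood and stage as the only term over all 9 libraries. The SE is the absolute log2 change divided by the square root of F. Green libraries had TMM factors of 1.13 to 1.15, color break libraries 0.927 to 0.932 and mature ones 0.937 to 0.945. FPKM means lack this scaling.

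Members and gene lists were chosen with earlier results of these data known. Named are all DFR and ANS rows, rows described as such without the ortholog, the 5 genes most like each leading gene and the highest gene of each pathway family. The highest gene of a family, like the leading gene of an enzyme, has the highest mean FPKM over the 9 libraries. Most of these are from the later stages, so the choice favours genes that rise. Library sums and ratios were tested on log2 values (sums + 1) by two-sided exact permutation tests. Alternatives were other scalings, filters and thresholds, DESeq2 1.42.0, limma on log2(FPKM + 1), a replicate block and leaving out each library. The fit was tested on simulated data.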

Additional observations from a re-analysis of the deposited data

How the results depend on the processing

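The count of DFR and ANS rows called higher at color break against green fruit stayed at 7 under every alternative tried. In mature against green fruit it was 8 in the fit without the filter and 7 otherwise. The counts between mature and color break fruit stayed at 0 in both directions. The count called lower at color break was 1, not 0, with the adjusted p alone, without the filter and with library size as the only scaling, and the count called lower in mature against green fruit was 1 with the adjusted p alone and without the filter. By construction, the first drops the fold threshold and the second adds genes to the test. Under library size scaling the row called lower was VaccDscaff6-snap-gene-380.44, at a log2 change of -1.02 where the main fit gave -0.72. That scaling moved the median log2 change of all genes at color break from -0.01 to -0.31. The cause of the call was not tested. VaccDscaff6-snap-gene-380.44 turned from a log2 change of 0.06 between mature and color break fruit to -0.0028 without color break replicate 2, -0.0050 without color break replicate 3 and -0.081 without mature replicate 2, and was called in none of these, within a range of -0.081 to 0.206 over all libraries left out in turn.

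Of 269 alternative values for the main results 262 were scored as the same as the main value. These values include counts of called rows, which were scored by size and allowed a small change. The count of 8 rows called higher in mature against green fruit without the filter was thus scored as the same as 7. The log2 change of the leading gene at color break was 3.30 to 3.74 for DFR and 7.45 to 8.21 for ANS over the settings, and 3.60 to 3.70 and 8.03 to 8.16 with each library left out in turn. With the replicate number as a block, the exact permutation p was 0.0278 for summed DFR, 0.0556 for summed ANS (log2 difference 7.38) and 0.0833 for the ratio (4.14), over 216 permutations. The numbers only name the samples. The deviations of same-numbered libraries correlated at -0.012 to 0.225, above 0.1 in 2 of 9 pairs. The changes of summed rows and of copy ratios without single libraries were alternatives chosen after seeing the data.

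With 3 libraries a stage, a pairwise permutation test cannot give a p under 0.1. The green levels of the ANS copies rest on few counts, 116 to 490 per copy and library.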

Other observations

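A gene model outside the ortholog rule carried a DFR activity and went the other way. VaccDscaff29-augustus-gene-16.15, on the minus strand of scaffold 29 from 1589743 to 1593110, has a GO term for dihydrokaempferol 4-reductase activity, the activity of DFR, without either ortholog. It was chosen after its values were seen. It measured 6.94 ± 0.727 FPKM in green fruit, 0.819 ± 0.344 at color break and 1.15 ± 0.168 in mature fruit. It fell by 2.79 on the log2 scale at color break (SE 0.28, edgeR adjusted p = 2.2e-05). VaccDscaff30-augustus-gene-208.35, described above, carries this term too, also without either ortholog, and rose by 3.31 on the log2 scale at color break. Another model with this term, VaccDscaff12-snap-gene-66.28, is assigned to the ANR ortholog, had stage means of 0.201 to 0.516 FPKM and was not tested.

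The glucosyltransferase genes of ortholog K13269, a family taken up after their likeness to ANS was seen, had 9 rows, of which 7 passed the filter. Their summed level was 19.0 ± 1.58 FPKM in green fruit, 1617 ± 99.5 at color break and 1348 ± 152 in mature fruit. These sums stood beside 9.61, 1772 and 1546 FPKM for ANS.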
